A study of Mus musculus with 12 samples.

Results

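Kidney cortex RNA was examined for 94 nuclear genes of the mitochondrial respiratory chain, out of 55487 genes counted in the series. They were taken by mouse symbol, as the protein-coding genes named Nduf, Uqcr, Atp5 or Cox4 to Cox8 with Sdha, Sdhb, Sdhc and Sdhd. By symbol, 38 belong to complex I, 4 to complex II, 8 to complex III, 18 to complex IV and 18 to complex V. The remaining 8 are the Ndufaf genes, which encode assembly factors of complex I and not subunits. Another 13 pseudogenes and non-coding genes with such symbols were left out, and 2 of the 94, Cox8c and the second identifier with the symbol Atp5o, had no count in any library.

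The animals were mice of a mixed C57BL/6 background, aged 6 to 8 weeks. Control mice (Ctrl) carried floxed alleles of ALR, the sulfhydryl oxidase encoded by Gfer. PT-KO mice carried the same alleles together with a Ggt1-Cre transgene, which acts in the proximal tubule and leaves ALR in the other cells of the kidney. Each genotype was taken without ischemia, and after bilateral renal ischemia of 22 min followed by 24 h of reperfusion (I/R), giving the groups Ctrl+I/R and PT-KO+I/R, with 3 libraries in each of the 4 groups. The labels name the genotypes WT and ALR knockdown and the mice without ischemia Sham. They do not say whether libraries of a group came from separate animals, so p-values measure the spread between these libraries.

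The respiratory chain passes electrons from NADH through complex I, or from succinate through complex II, to complex III and on to complex IV, where oxygen is reduced. Protons pumped along the way drive complex V, the ATP synthase. Some subunits are encoded by the mitochondrial genome and the rest by nuclear genes, and proximal tubule cells are among the cells of the body richest in mitochondria.

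Factors that control these genes bind near their start sites, so the letters of 5 motifs were searched on both strands in RefSeq promoter windows (GRCm38.p6, from 250 bases before to 50 after the start), in which 76 of the 93 symbols were found. The NRF1 letters, GCGC and TGCGC with any base between them, were held by 25% of the matched genes and by 5.19% of all 27025 genes with a window. The ETS letters CCGGAAG, bound by GABP, were held by 23.7% against 9.93%, and the YY1 letters AAGATGGC by 14.5% against 3.19%. The estrogen-related receptor (ERR) letters TCAAGGTCA were held by 2.63% against 0.466%, and the SP1 letters GGGCGG by 46.1% against 38.2%. Windows of these genes also had more CpG, a median of 20 against 8 over all genes. The part of base composition in the difference in letters was not tested. The stretches printed here belong to genes on which the results turn. They are written 5′ to 3′ in the sense of the gene, stop where an annotated exon begins, and have the letters of NRF1, ETS, YY1 or ERR in capitals. Sdha (chr13:74350281-74350308, minus strand) shows NRF1 letters and Uqcr11 (chr10:80406831-80406971, minus strand) ETS letters. Atp5g1 (chr11:96075671-96075781, minus strand) and Atp5g3 (chr2:73911327-73911476, minus strand, ERR letters) encode the same mature protein. Cox7a1 (chr7:30184021-30184143, plus strand) and Cox7a2 (chr9:79759879-79760003, minus strand) are a pair of isoform genes.
Sdha: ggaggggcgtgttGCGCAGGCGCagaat
Uqcr11: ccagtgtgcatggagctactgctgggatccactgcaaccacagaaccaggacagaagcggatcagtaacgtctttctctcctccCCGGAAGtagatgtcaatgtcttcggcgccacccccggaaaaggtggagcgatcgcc
Atp5g1: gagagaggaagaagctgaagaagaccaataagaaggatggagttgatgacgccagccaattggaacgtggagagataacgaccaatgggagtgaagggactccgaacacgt
Atp5g3: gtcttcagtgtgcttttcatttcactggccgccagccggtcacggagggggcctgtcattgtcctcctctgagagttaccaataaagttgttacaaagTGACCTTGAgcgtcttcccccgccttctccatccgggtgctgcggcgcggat
Cox7a1: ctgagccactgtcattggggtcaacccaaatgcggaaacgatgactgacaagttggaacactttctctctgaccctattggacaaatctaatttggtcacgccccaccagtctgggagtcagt
Cox7a2: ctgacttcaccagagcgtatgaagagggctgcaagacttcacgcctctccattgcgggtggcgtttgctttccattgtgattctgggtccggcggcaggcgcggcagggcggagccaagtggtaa

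The stretches of Atp5g1, Cox7a1 and Cox7a2 held none of the letters marked by capitals, and no motifs overlap in capitals. SP1 letters, which also lie in the Cox7a2 window, are not marked.

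Library totals ran from 12165089 to 23123693 counts. Xist, transcribed in female cells, reached 1126 and 1209 counts scaled to library size (CPM) in Ctrl libraries 1 and 2 and stayed below 1 CPM in the other 10. Comparisons against Ctrl are therefore in part comparisons of sex, while PT-KO+I/R with PT-KO and PT-KO+I/R with Ctrl+I/R are between male libraries. Proximal tubule markers were abundant, as the tissue label has it: 8 of them summed to 14983 to 17570.2 CPM in Ctrl and 16268 to 18836 CPM in PT-KO, but to 5298 to 10432 CPM and 4522 to 5209 CPM in the matching I/R groups. Within Ctrl+I/R the sum was lowest in library 2 and highest in library 4. Gfer was at 12.7, 11.4 and 14.4 CPM in Ctrl and 9.97, 17.1 and 15.0 CPM in PT-KO, groups that overlapped, but a count over the whole gene in all cells does not check a deletion of part of it in 1 cell type.

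Before I/R the 94 genes took 2.12% ± 0.0453 (SD, n = 3) of all counts in control kidneys and 1.94% ± 0.0495 in PT-KO kidneys. After I/R they took 1.65% ± 0.255 in controls and 1.34% ± 0.105 in PT-KO. Every library after I/R lay below every library before it, and Ctrl+I/R spread most, from 1.37% in library 2 to 1.87%. Complex V held the largest share, 0.852% ± 0.0271 in Ctrl and 0.530% ± 0.0408 in PT-KO+I/R. Complex II held the smallest share of the 5 complexes, 0.197% ± 0.00809 and 0.103% ± 0.00713 in the same groups. The Ndufaf assembly factors stood at 0.0202% ± 0.000793 in Ctrl and 0.0194% ± 0.00147 in Ctrl+I/R, within the spread of the libraries, and at 0.0198% ± 0.000498 and 0.0137% ± 0.000728 in the matching PT-KO groups. These shares were not tested. On the TMM scale, which allows for the genes that take up many counts, the summed level was 20153 to 21941 CPM in Ctrl and 19998 to 22269 CPM in PT-KO, groups that overlap. From bulk tissue, fewer cells of a type and less RNA per cell cannot be told apart.

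**Figure D1:**
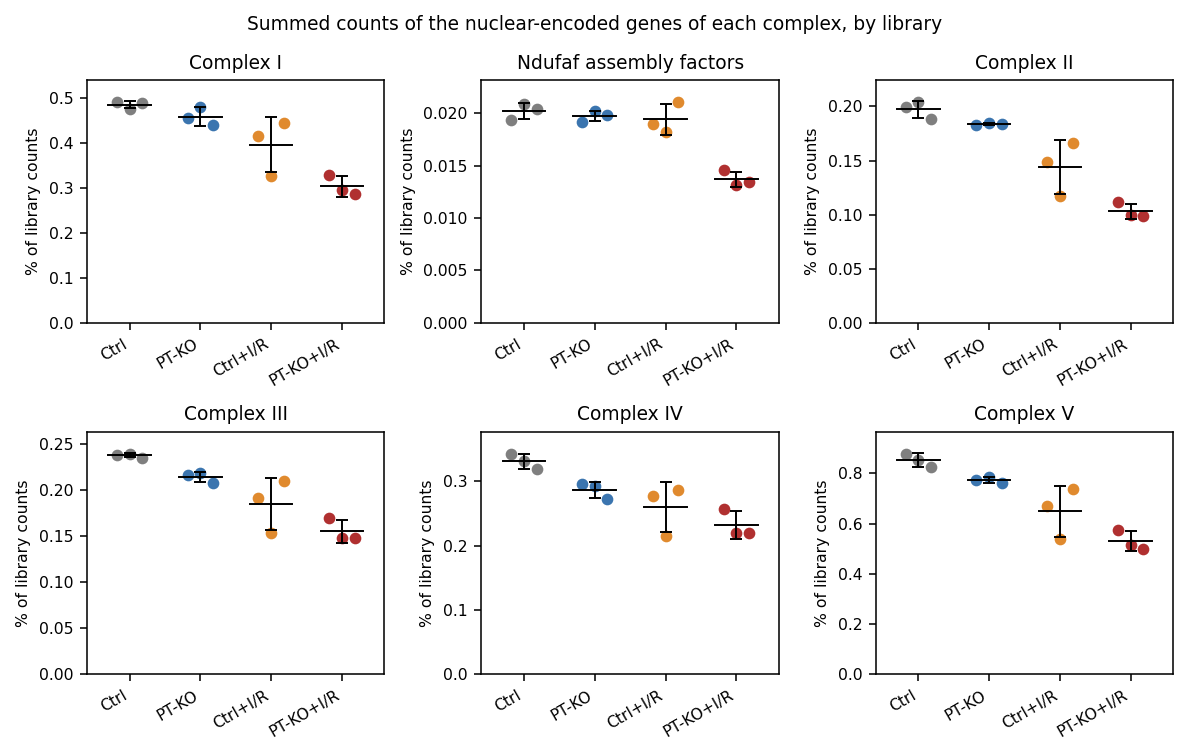
Percent of library counts (y axis) taken by the nuclear-encoded genes of each complex and by the Ndufaf assembly factors, with a point for each of the 3 libraries of a group (x axis), a line at the mean and bars of 1 SD. In every complex the PT-KO+I/R points lie below all Ctrl and PT-KO points, and the assembly factors lie low in PT-KO+I/R alone.

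The widest change was that of PT-KO kidneys after I/R. Relative to PT-KO, 76 of the 88 genes that passed the filter on low counts fell and 1, Atp5g2, rose (quasi-likelihood test of edgeR, adjusted p under 0.05). That is 86.4% of these genes against 32.7% of all genes called lower, with 32.9% of all genes called higher. Their median log2 fold change was -0.56, or 32.1% lower, the median over all genes was 0.01, and 87 of the 88 values were negative. The groups of 3 libraries did not overlap in 74 of the 88, against 70.8% of all genes. Beside this stood falls of all 8 proximal tubule markers (median -2.52) and all 4 thick ascending limb markers (median -2.31), the latter summing to 4597 to 5420.1 CPM before and 1927 to 2369.5 CPM after I/R. The leukocyte markers summed to 13.3 to 17.5 CPM before and 42.7 to 57.3 CPM after, and 3 of the 4 rose and 1 fell. All 4 tubular injury markers rose (median 10.6) and all 3 principal cell markers fell (median -1.33). The part of all these markers in the result was not tested.

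**Figure D2:**
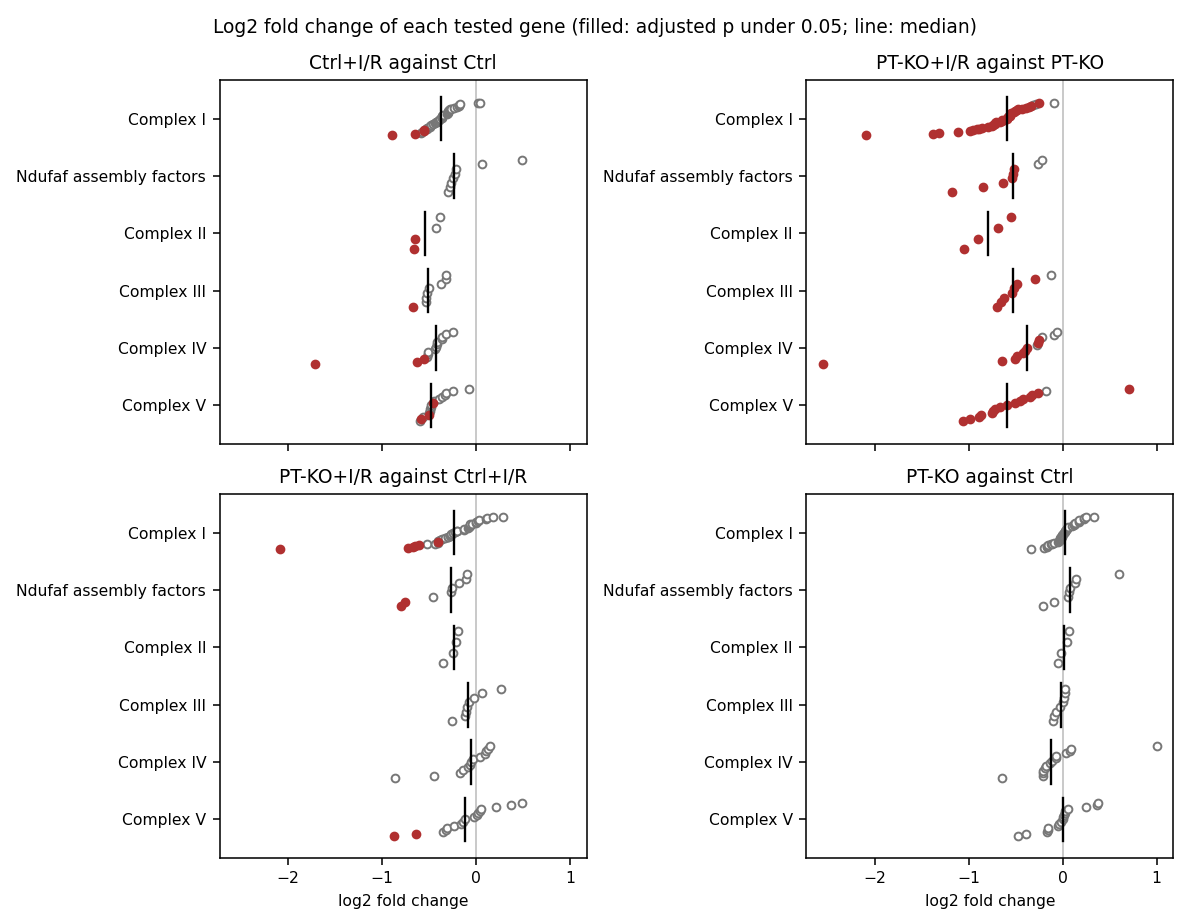
Log2 fold change (x axis) of each tested gene by complex (y axis) in the 4 comparisons, filled where the edgeR adjusted p was under 0.05, with a line at the median of each complex. Nearly all points of PT-KO+I/R against PT-KO are filled and left of 0, and no point of PT-KO against Ctrl is filled.

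In complex I, 35 of 38 genes fell (median -0.60), among them all 7 of the conserved core subunits. Ndufs1 (chr1:63143596-63176833, minus strand) carries iron-sulfur clusters through which electrons leave the NADH site. Its level was 381, 419.8 and 411 CPM in PT-KO libraries and 165, 147 and 154 CPM in PT-KO+I/R libraries (log2 fold change -1.39 ± 0.09 SE, edgeR adjusted p = 6.85e-07). The groups were far apart, and no other core subunit fell as much. Ndufs1 shares exonic sequence with Eef1b2 on the opposite strand, and whether the counting used strand is not given in the sources used here. Ndufs8, an iron-sulfur subunit near the ubiquinone site, had 111, 139 and 117 CPM before and 61.7, 64.1 and 60.4 CPM after I/R (log2 fold change -0.98 ± 0.10, edgeR adjusted p = 1.36e-05). Among other core subunits, log2 fold changes were -0.76 (Ndufv2), -0.65 (Ndufs3), -0.60 (Ndufs7) and -0.57 (Ndufv1, which binds NADH and the flavin). The 3 genes of the complex that did not pass were Ndufa1, Ndufa2 and Ndufa7, with values of -0.32, -0.28 and -0.09.

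Of the 8 Ndufaf assembly factors, 6 fell (median -0.53). Ndufaf3 (chr9:108565537-108567434, minus strand), which acts early in building the ubiquinone-binding arm, was at 18.2, 24.1 and 18.9 CPM before I/R and 10.5, 7.97 and 8.83 CPM after (log2 fold change -1.18 ± 0.16, edgeR adjusted p = 0.000102). Exons of Ndufaf3 overlap those of Impdh2 on the opposite strand. Ndufaf6 had a log2 fold change of -0.85 ± 0.14, and the 2 that did not pass were Ndufaf2 (-0.22) and Ndufaf8 (-0.27).

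All 4 subunits of complex II, succinate dehydrogenase, fell, with the lowest median of the complexes, -0.80. Sdha (chr13:74322254-74350280, minus strand), the flavoprotein that oxidizes succinate, was at 1026, 1097 and 1057 CPM before I/R and 531, 494 and 515 CPM after (log2 fold change -1.05 ± 0.09, edgeR adjusted p = 3.78e-06). Sdhb, which holds the iron-sulfur clusters, went from 261, 318 and 278 CPM to 177, 137 and 149 CPM (log2 fold change -0.90 ± 0.11, edgeR adjusted p = 7.71e-05). In both genes the groups were apart. The membrane anchors Sdhc and Sdhd had log2 fold changes of -0.69 ± 0.09 and -0.55 ± 0.09.

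In complex III, 7 of 8 genes fell (median -0.53). The core proteins Uqcrc1 and Uqcrc2 had log2 fold changes of -0.52 ± 0.09 and -0.63 ± 0.10, and Uqcrfs1, the Rieske iron-sulfur protein, of -0.54 ± 0.10. The 2 with the largest falls were the small subunits Uqcr11 (-0.70 ± 0.09) and Uqcrh (-0.65 ± 0.09). Uqcr11, whose promoter stretch is printed above, had 115, 129.6 and 109 CPM before and 72.5, 72.6 and 73.4 CPM after I/R, without overlap. Uqcrq did not pass (-0.12).

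Complex IV had the smallest median, -0.38, with 9 of 13 tested genes lower. Cox5b, a zinc-binding subunit, was at 236, 239 and 213 CPM before I/R and 192, 151 and 151 CPM after (log2 fold change -0.49 ± 0.11, edgeR adjusted p = 0.00286). Cox4i1, which has a role in regulating the enzyme, went from 637, 708 and 612 CPM to 548, 543 and 553 CPM (log2 fold change -0.26 ± 0.09, edgeR adjusted p = 0.0278). This small difference did not pass without PT-KO library 1 (edgeR adjusted p = 0.0509) or 2 (0.0899), nor without PT-KO+I/R library 3 (0.0742) or 4 (0.0639). The 4 tested genes that did not pass were Cox5a (-0.22), Cox6a1 (-0.10), Cox8a (-0.28) and Cox6b2 (-0.06). Cox6b1 and Cox7b fell, with log2 fold changes of -0.51 ± 0.09 and -0.65 ± 0.09.

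In complex V, 15 of 17 tested genes fell and 1 rose (median -0.60). The catalytic head had the highest levels of all 94 genes per length, 723 CPM per kb of exon for Atp5a1 and 688 for Atp5b in Ctrl. Atp5a1, the alpha subunit, was at 2131, 2328 and 2137 CPM before I/R and 1415, 1314 and 1303 CPM after (log2 fold change -0.72 ± 0.09, edgeR adjusted p = 7.87e-05). Atp5b, the beta subunit, went from 2811, 3094 and 2899 CPM to 2275, 1981 and 1963 CPM (log2 fold change -0.51 ± 0.10, edgeR adjusted p = 0.00129). Neither pair of groups overlapped. Atp5c1, the central stalk, had a log2 fold change of -0.87 ± 0.09, and Atp5l did not pass (-0.18). Atp5s, counted in complex V by symbol alone and listed in RefSeq as Dmac2l, had a log2 fold change of -0.99 ± 0.22.

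**Figure D3:**
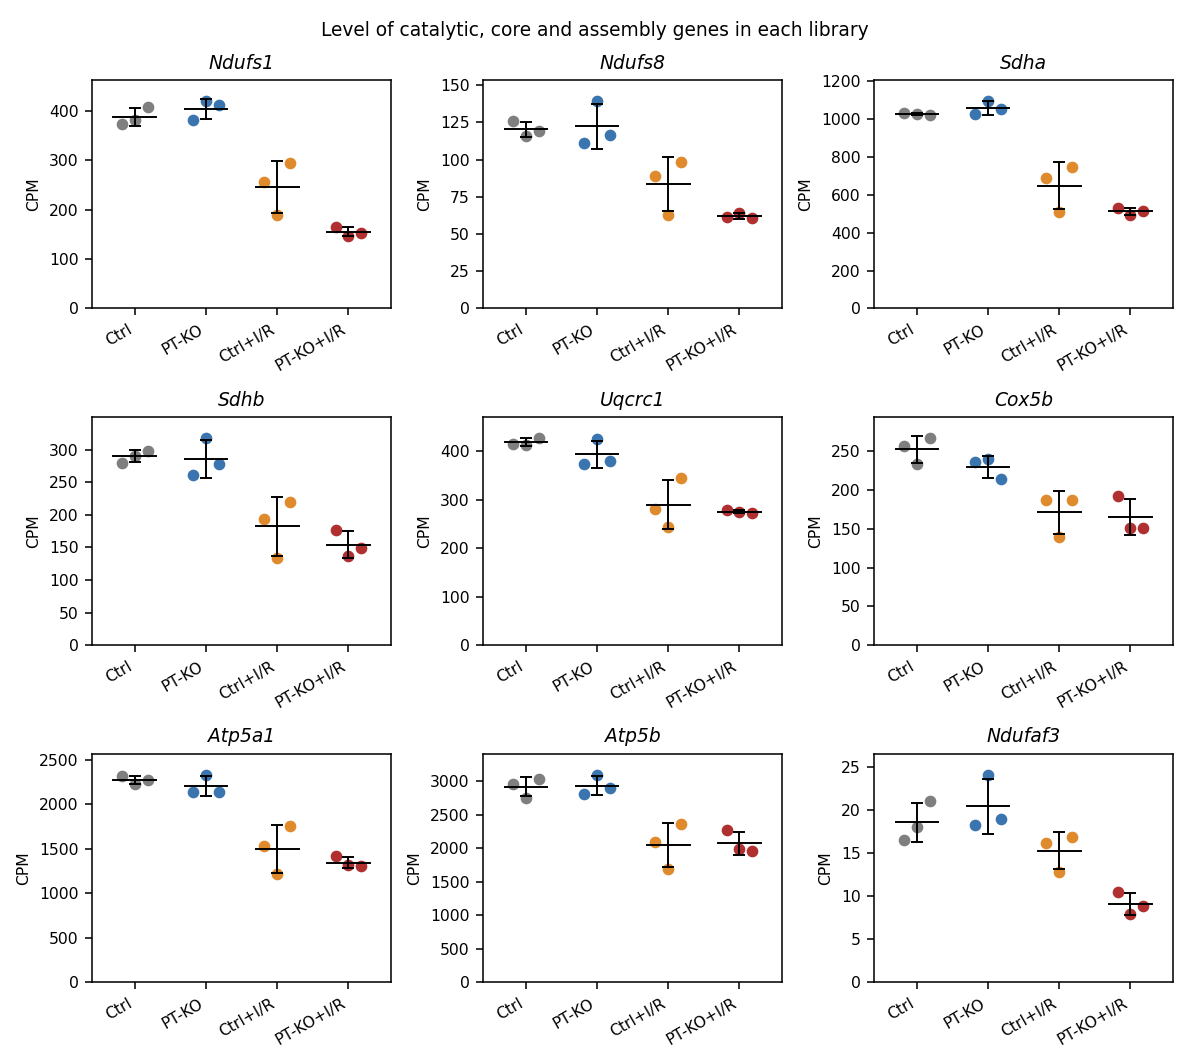
Level in CPM (y axis, from 0) of 9 catalytic, core or assembly genes in each library, with the mean and 1 SD of each group of 3 (x axis). PT-KO+I/R lies below PT-KO in every panel, Ctrl and PT-KO overlap, and the lowest Ctrl+I/R point is library 2 in each.

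In control mice the direction was the same and the spread wider. Between Ctrl and Ctrl+I/R, 13 of 89 tested genes fell and none rose by edgeR, or 14.6% against 7.97% of all genes called lower and 11.4% called higher. An unadjusted p under 0.05 was found for 49 of the 89. The median log2 fold change was -0.41 (24.9% lower), and 85 values were negative. Medians by complex ran from -0.54 for complex II and -0.51 for complex III to -0.38 for complex I, with -0.24 for the assembly factors, of which none was called. Group values did not overlap in 65 of the 89 genes, against 43.7% of all genes.

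Cox7a1 had the largest fall in control mice, from 9.20, 7.10 and 9.98 CPM to 3.48, 1.31 and 3.16 CPM (log2 fold change -1.71 ± 0.36, edgeR adjusted p = 0.0226). Ndufb2, a small complex I subunit whose exons overlap Braf and, on its own strand, Gm42420, went from 7.14, 8.38 and 7.09 CPM to 4.02, 3.81 and 4.24 CPM (log2 fold change -0.90 ± 0.17, edgeR adjusted p = 0.0185). Sdha went from 1031, 1026 and 1021 CPM to 688, 512 and 748 CPM (log2 fold change -0.65 ± 0.18, edgeR adjusted p = 0.0434). In each of these genes all Ctrl libraries lay above all Ctrl+I/R libraries, and library 2 was the lowest. Uqcr11 (-0.67), Sdhb (-0.66), Ndufs1 (-0.65), Cox7b (-0.62), Atp5j2 (-0.59), Cox5b (-0.55) and Atp5h (-0.50) also fell, and the remaining 3, named after their values were seen, were Ndufa9, Ndufab1 and Atp5e. The calls depended on single libraries. None was left without Ctrl library 1, nor without Ctrl library 2, which are the female libraries, while the median of these genes stayed at -0.41 and -0.43. Calls were lost over the whole table in those fits, with 0.373% and 0.433% of all genes called lower. Leaving out Ctrl library 3 gave 2 lower and 1 higher, with 5.48% of all genes lower. Leaving out Ctrl+I/R library 1 gave 1 lower, library 2 gave 4 (median -0.25) and library 4 gave 32, with 1.38%, 3.91% and 10.9% of all genes lower. With both female libraries left out and the other 10 in 1 fit, 4 genes were called lower, beside 3.15% of all genes, and 86 of 89 values were negative. Ctrl is then 1 library, assumed to vary like the other groups. Of the 8 proximal tubule markers 3 fell here, as did all 3 distal convoluted tubule markers (median -1.58). All 4 leukocyte markers (median 3.46) and all 4 tubular injury markers (median 6.84) rose, and the part of these in the result was not tested.

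PT-KO and control kidneys were next compared after I/R. By edgeR 10 of 88 tested genes were lower in PT-KO+I/R and none was higher, or 11.4%, below the 24.4% of all genes called lower (higher, 22.5%). This order turned without Ctrl+I/R library 2, where 34 of 88 were lower, a larger share than the 25.1% of all genes. The median log2 fold change was -0.14, with 67 of 88 values negative. It moved to -0.27 without Ctrl+I/R library 2 (80 negative) and to -0.05 without library 4 of that group (56 negative). The groups did not overlap in 19 genes, against 58.7% of all genes. Called genes were in complex I (6 of 38), among the assembly factors (2 of 8) and in complex V (2 of 17). No gene assigned by symbol to complexes II, III or IV was called, and none of these had an unadjusted p under 0.05. Ndufa4l2, called here, is counted in complex I by symbol, though its paralog Ndufa4 is now known as a subunit of complex IV. In the same comparison 4 of 8 proximal tubule markers (median -1.30) and 3 of 4 thick ascending limb markers (median -1.73) were lower, as were 2 of 3 pericyte and smooth muscle markers (median -0.72). Higher were 3 of 4 tubular injury markers (median 1.98) and 2 of 3 endothelial markers (median 0.44). Of the 4 leukocyte markers 2 were higher and 1 was lower (median 0.28). The part of these cell type changes in the result was not tested. The Ctrl+I/R libraries also enter the comparison of controls and the PT-KO+I/R libraries that of PT-KO mice.

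The largest fall between the genotypes was in Ndufa4l2 (chr10:127514967-127517154, plus strand), a paralog of Ndufa4 and a known target of hypoxia-inducible factor. It was at 1.97, 2.14 and 2.15 CPM in controls after I/R, from 34 to 44 counts, and at 0.941, 0.356 and 0.258 CPM in PT-KO mice, from 4 to 11 counts (log2 fold change -2.09 ± 0.46, edgeR adjusted p = 0.00771). Its exons overlap Shmt2 on the opposite strand. Of 15 other targets of the factor 4 rose, led by Adm (1.66) and the glucose transporter Slc2a1 (1.66), where 22.5% of all genes were called higher. Another 5 fell, led by Ankrd37 (-1.53), or 33.3% lower beside 24.4% of all genes. The median of the list was 0.18. The pericyte gene Rgs5 fell too (-0.72 ± 0.17), as did 2 of 3 pericyte and smooth muscle markers in all, and their part in the result was not tested.

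Among the other 9 genes, Atp5g1 was at 54.3, 39.4 and 72.2 CPM in controls after I/R and 35.9, 27.3 and 27.8 CPM in PT-KO mice (log2 fold change -0.88 ± 0.22, edgeR adjusted p = 0.0141). Ndufaf5, which modifies the core subunit Ndufs7 during assembly, was at 12.6, 12.8 and 14.8 CPM against 9.07, 7.66 and 6.58 CPM (log2 fold change -0.80 ± 0.17, edgeR adjusted p = 0.00648). Ndufab1, the acyl carrier protein of mitochondria, was at 87.5, 81.6 and 108 CPM against 61.5, 51.4 and 55.6 CPM (log2 fold change -0.72 ± 0.13, edgeR adjusted p = 0.00364). In these genes every PT-KO+I/R library lay below every Ctrl+I/R library. Ndufaf3 (-0.76), Ndufs1 (-0.67) and Atp5s (-0.64) also fell, and the other 3, named after their values were seen, were Ndufb10 (-0.65), Ndufb2 (-0.61) and Ndufs5 (-0.41). Atp5g1 and Ndufs1 did not pass without PT-KO+I/R library 3 (edgeR adjusted p = 0.0592 and 0.0566) or 4 (0.0620 and 0.0549). For Atp5s the edgeR adjusted p missed the threshold when Ctrl+I/R library 1 was left out (0.0739) or 4 (0.0583), nor without PT-KO+I/R library 3 (0.0923) or 4 (0.0919). Leaving out PT-KO+I/R library 3 or 4 took the count of lower genes to 5, beside 17.7% and 16.2% of all genes. Scaling to library totals called 35 lower, beside 33.2% of all genes, with the median of all genes at -0.21 and that of the 88 at -0.34.

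Without I/R, none of the 89 tested genes differed between PT-KO and Ctrl by edgeR, against 0% of all genes, while 9 of the 89 and 2573 of all 15291 genes had an unadjusted p under 0.05. DESeq2 called 1 lower, beside 1.75% of all genes. The median log2 fold change was 0.00, with 45 values positive and 44 negative. The groups did not overlap in 11 genes, against 21% of all genes. Atp5g1 was one of these, at 87.2, 76.7 and 83.1 CPM in control and 60.1, 68.3 and 59.9 CPM in PT-KO libraries (log2 fold change -0.39 ± 0.09, edgeR adjusted p = 0.183). Without Ctrl library 3, the male library of the group, 1 gene was called lower and 4 higher, where 839 of all 15597 genes were called lower and 1091 higher.

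Whether I/R acted differently in the genotypes was tested on all 12 libraries. In 9 of 89 genes the I/R change was lower in PT-KO than in control mice and in none higher, or 10.1% against 16.4% of all genes called lower and 14.3% called higher. Of the 8 Ndufaf assembly factors 4 were among them. For Ndufaf3 the difference was -0.89 ± 0.23 on the log2 scale (edgeR adjusted p = 0.0119), with log2 fold changes of -0.27 in control and -1.18 in PT-KO mice. For Ndufaf2, a late assembly chaperone, it was -0.70 ± 0.23 (edgeR adjusted p = 0.0408), with 0.49 in control and -0.22 in PT-KO mice, neither of which passed on its own. No gene assigned by symbol to complexes II, III or IV was called. Ndufa4l2, a paralog of the complex IV subunit Ndufa4, was called and is counted in complex I by symbol. By the same test the I/R change was lower in PT-KO mice for 4 of 8 proximal tubule markers (median -1.36) and 2 of 4 thick ascending limb markers (median -1.44), and higher for 3 of 4 tubular injury markers (median 2.31) and 2 of 3 endothelial markers (median 0.42), and their part in the result was not tested. The test includes the female Ctrl libraries: with sex as a covariate 1 gene was called, beside 11.1% of all genes lower. Without those libraries, which leaves 1 Ctrl library assumed to vary like the other groups, none was called, beside 8.11% of all genes lower. Leaving out 1 library gave 4 genes for Ctrl library 2, PT-KO library 2 and PT-KO+I/R libraries 3 and 4, and 5 for Ctrl library 1, Ctrl+I/R library 1 and PT-KO library 4, where 11.9% to 13.7% of all genes were lower. Without Ctrl+I/R library 2 it was 20 lower and 1 higher, a larger share lower than the 17.8% of all genes, so the order given above turned.

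Isoform genes that fill the same place in a complex moved unequally. The same mature c subunit of the ATP synthase ring is encoded by 3 genes, of which Atp5g3 had 276 CPM per kb of exon in Ctrl, Atp5g1 16.8 and Atp5g2 1.97. In PT-KO mice Atp5g1 (chr11:96068852-96075670, minus strand) went from 60.1, 68.3 and 59.9 CPM before I/R to 35.9, 27.3 and 27.8 CPM after it (log2 fold change -1.06 ± 0.12, edgeR adjusted p = 2.87e-05). Atp5g3 went from 590.4, 634 and 553 CPM to 500.4, 455 and 443 CPM (log2 fold change -0.35 ± 0.09, edgeR adjusted p = 0.00722). Both fell without overlap of the groups, the minor gene more than the major one. Atp5g2 went the other way, from 3.09, 1.94 and 2.15 CPM to 3.34, 4.41 and 3.93 CPM (log2 fold change 0.71 ± 0.26, edgeR adjusted p = 0.0350), with 35 to 99 counts a library. Its rise did not pass without PT-KO library 2 or 4 (edgeR adjusted p = 0.110 for both), without PT-KO+I/R library 3 (0.121) or 4 (0.0818), or with DESeq2 (0.0535).

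Cox7a1 (chr7:30184144-30186078, plus strand), the heart and muscle isoform of subunit 7a, is a minor form beside Cox7a2 in kidney. Per length it made up 7.09% ± 0.860 (SD, n = 3) of the pair in Ctrl, 6.48% ± 0.698 in PT-KO, 2.89% ± 0.760 in controls after I/R and 1.52% ± 0.756 in PT-KO mice after I/R. In PT-KO mice its level went from 7.76, 8.67 and 8.59 CPM to 2.74, 0.801 and 1.03 CPM, the largest fall of the 88 genes (log2 fold change -2.55 ± 0.37, edgeR adjusted p = 0.000191). Cox7a2 fell less, from 203, 245 and 194 CPM to 198, 145 and 147 CPM (log2 fold change -0.40 ± 0.14, edgeR adjusted p = 0.0248), with overlap of the groups. It did not pass without PT-KO library 2 (edgeR adjusted p = 0.0981) or PT-KO+I/R library 3 (0.0997) or 4 (0.0970). Cox7a2l, a supercomplex factor of the same family, had a log2 fold change of -0.27 ± 0.08. The 3 pericyte and smooth muscle markers summed to 116 to 182 CPM in Ctrl and 138 to 203 CPM after I/R in controls, and to 112 to 181 CPM and 105 to 133 CPM in PT-KO mice. They moved unequally: in PT-KO mice Rgs5 (-1.05) and Myh11 (-1.47) fell and Acta2 (1.16) rose, while in controls Acta2 rose (1.52) and Rgs5 (-0.50) and Myh11 (-0.49) did not pass. Their part in the result was not tested.

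Ndufa4, now known as a subunit of complex IV despite its symbol, went from 406, 469 and 394 CPM to 367, 312 and 333 CPM in PT-KO mice (log2 fold change -0.33 ± 0.10, edgeR adjusted p = 0.0145). It did not pass without PT-KO library 2 (edgeR adjusted p = 0.0546) or PT-KO+I/R library 3 (0.0615). Ndufa4l2 made up 0.668% ± 0.165 of that pair per length in Ctrl, 0.628% ± 0.202 in PT-KO, 0.905% ± 0.192 in controls after I/R and 0.188% ± 0.119 in PT-KO mice after I/R. The change with I/R was -2.09 ± 0.47 on the log2 scale in PT-KO mice (edgeR adjusted p = 0.00294) and 0.04 ± 0.24 in controls (edgeR adjusted p = 0.914), and the difference between these was -2.12 ± 0.54 (edgeR adjusted p = 0.0118). Every PT-KO+I/R library lay below every library of the other groups.

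Other tissue isoforms were near the lower limit of the counts. Cox4i2, the oxygen-responsive partner of Cox4i1, had 2 to 11 counts a library, 0.105% ± 0.0444 of the pair per length in Ctrl, and was not tested. Cox8b, an isoform of muscle and brown fat, had 44 counts in Ctrl library 1 and at most 7 in any other. That library also held 30.6 CPM of 4 fat markers, against at most 1.42 CPM elsewhere. Cox6a2, the muscle isoform of Cox6a1, had its highest count, 47, in PT-KO library 2, which held 40.2 CPM of 4 skeletal muscle markers against at most 1.83 CPM elsewhere.

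**Figure D4:**
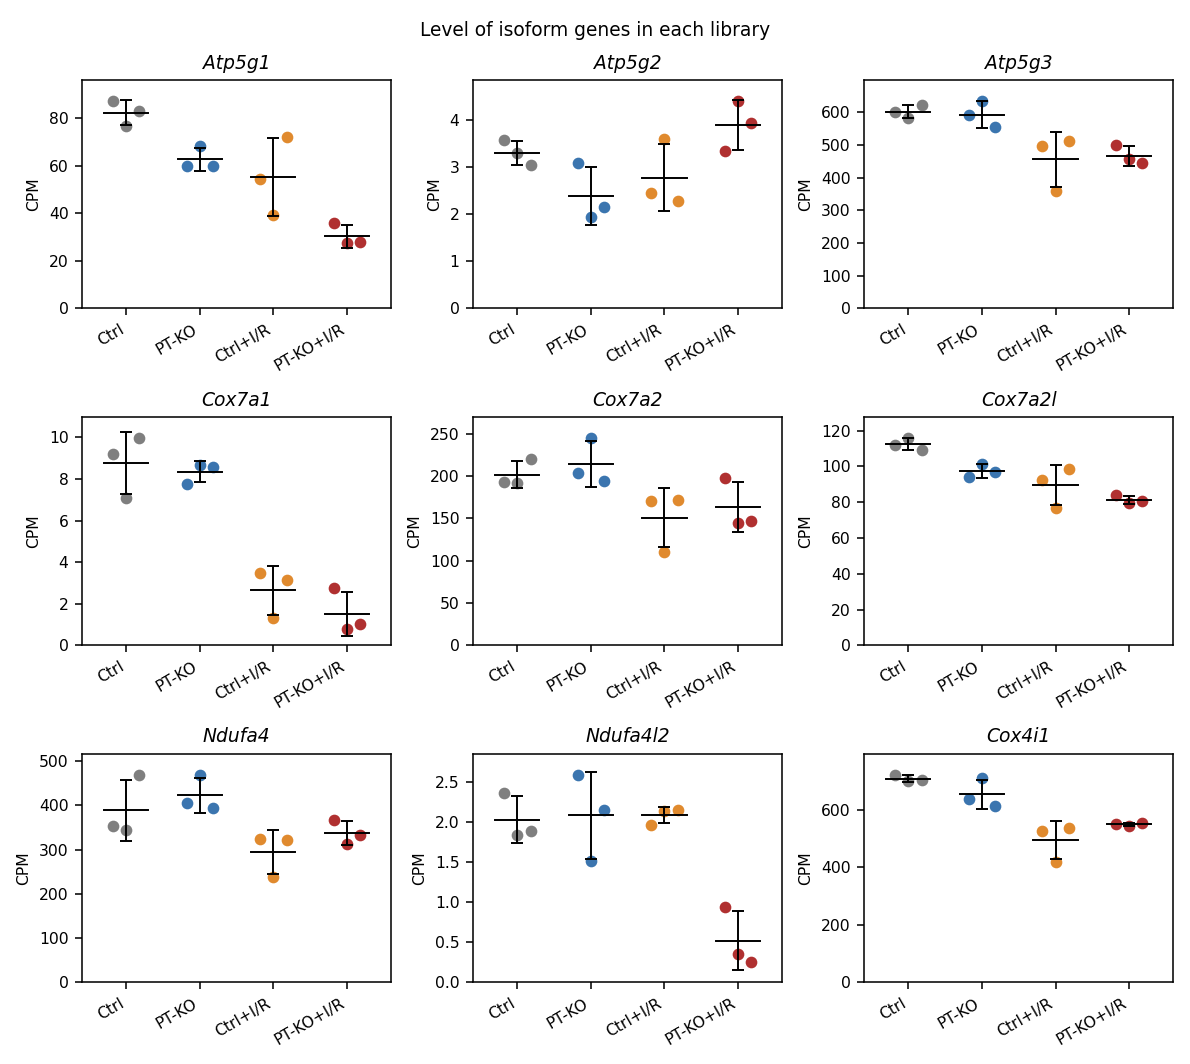
Level in CPM (y axis, from 0) of 9 isoform genes in each library, with the mean and 1 SD of each group of 3 (x axis). Atp5g1 has its lowest and Atp5g2 its highest mean in PT-KO+I/R, Cox7a1 is low in both groups after I/R, and Ndufa4l2 is low in PT-KO+I/R.

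Genes around the chain were described with lists of their own. Of 42 tested assembly factors outside the Ndufaf name, 25 fell and 3 rose with I/R in PT-KO mice (median -0.48), and 15 were lower and 2 higher than in controls after I/R. As shares, 59.5% fell with I/R beside 32.7% of all genes, and 35.7% were lower than in controls beside 24.4%. Lyrm7 and Bcs1l, which place the Rieske protein in complex III, changed most in both comparisons, which share the PT-KO+I/R libraries. Lyrm7 had log2 fold changes of -1.99 ± 0.25 with I/R in PT-KO mice and -2.05 ± 0.24 against controls after I/R, and Bcs1l of -1.66 ± 0.16 and -1.90 ± 0.18. Against controls after I/R Uqcrfs1, the protein they place, had -0.02 ± 0.16 and did not pass. Of 5 electron carriers and subunits outside the rule 3 fell and 1 rose with I/R in PT-KO mice, among them Etfa (-0.85 ± 0.09), which passes on electrons of fatty acid oxidation, and Cyc1 (-0.51 ± 0.10), cytochrome c1.

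The 13 mitochondrially encoded subunits did not fall with the nuclear ones. With I/R in PT-KO mice 1 rose, mt-Nd1 (0.38 ± 0.11), beside 32.9% of all genes, and none fell (median 0.15). Against controls after I/R 4 were higher, beside 22.5% of all genes (median 0.54), and with I/R in controls none was called (median 0.01). Without I/R none was called between PT-KO and control mice either, but all 13 values were positive there (median 0.36) and 8 had an unadjusted p under 0.05. Their summed level was 136735 to 151425 CPM in PT-KO and 138431 to 170106 CPM in PT-KO+I/R, groups that overlap.

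Among 15 regulators of the chain, 7 fell and 3 rose with I/R in PT-KO mice, where 32.7% of all genes fell and 32.9% rose. Esrra, an estrogen-related receptor, went from 113, 126 and 104 CPM to 32.2, 32.2 and 25.9 CPM (log2 fold change -1.93 ± 0.11, edgeR adjusted p = 3.79e-07). Its coactivator Ppargc1a went from 114, 98.2 and 116 CPM to 39.4, 33.6 and 37.3 CPM (log2 fold change -1.58 ± 0.10, edgeR adjusted p = 7.52e-07). In both the groups were far apart, and Perm1, a muscle-enriched partner of these factors, fell most (-4.73 ± 0.32). In controls Ppargc1a (-1.02 ± 0.24) and Perm1 (-3.01 ± 0.59) fell, and Esrra did not pass (-0.68 ± 0.23, edgeR adjusted p = 0.0734). Nrf1, whose letters many of the promoters hold, rose in PT-KO mice (0.36 ± 0.11), and Gabpa, which binds the ETS letters, did not pass (0.16 ± 0.09).

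The changes of genes with and without the promoter letters are given as medians, with no test. In PT-KO mice with I/R the median log2 fold change was -0.55 in 19 genes with the NRF1 letters and -0.57 in 55 without. It was -0.58 in 18 genes with the ETS letters and -0.56 in 56 without, and -0.60 in 11 with the YY1 letters and -0.55 in 63 without. Of the letters searched, those of SP1 were in the most of these genes and those of ERR in the fewest. The median was -0.56 in 34 genes with the SP1 letters and -0.56 in 40 without, and -0.45 in 2 genes with the ERR letters and -0.56 in 72 without. In controls with I/R the median was -0.39 in 19 genes with the NRF1 letters and -0.41 in 55 without, and -0.47 in 18 genes with the ETS letters and -0.39 in 56 without. There it was -0.48 in 11 genes with the YY1 letters and -0.39 in 63 without, -0.37 in 34 genes with the SP1 letters and -0.48 in 40 without, and -0.39 in 2 genes with the ERR letters and -0.41 in 72 without. Over the 88 genes, which share the same libraries, exon length on the log10 scale had a Pearson correlation of -0.10 and a Spearman correlation of -0.22 with the change.

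**Figure D5:**
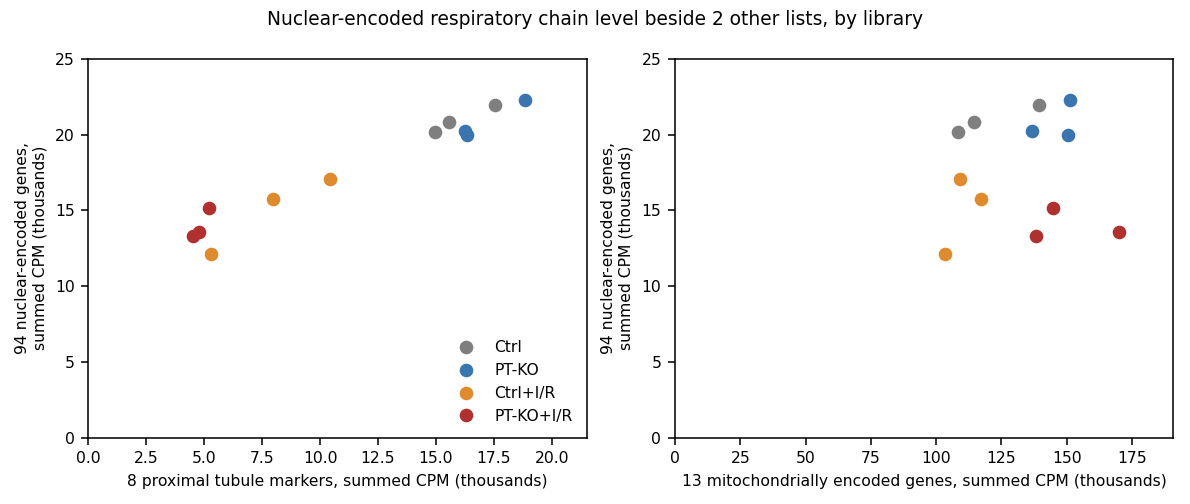
Summed level of the 94 nuclear-encoded genes (y axis) against that of 8 proximal tubule markers (left) and of 13 mitochondrially encoded genes (right), in CPM, with 1 point per library. After I/R both the markers and the nuclear-encoded genes are low, while the mitochondrially encoded genes of PT-KO+I/R are not.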

How the data were processed

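Illumina RNA sequencing gave 12 libraries of mouse kidney cortex. The deposited table held whole-number read counts per Ensembl gene, made by the authors. The submitters' processing notes name HISAT2 2.0.4 and mm10, and the counting program, annotation and strand setting are not given in the sources used here. Symbols, biotypes and exon lengths were taken from GENCODE M21. Counts were tested with edgeR 4.0.16 (filterByExpr, TMM, quasi-likelihood F test) under R 4.3.3. Pairs of groups were fitted on their 6 libraries and the interaction on all 12, with Benjamini-Hochberg adjustment over all genes tested and a threshold of 0.05. DESeq2 1.42.0, other scalings, no filter on low counts, a replicate block, sex as a covariate and leaving out each library were the alternatives. The SE of a log2 fold change was derived from the test, as its absolute value divided by the square root of the F statistic. CPM were on the TMM scale. Counting error is largest in genes of few counts, such as Cox4i2 and Ndufa4l2.

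The members and gene lists were chosen with earlier results of these data known. Genes were named by role (core and catalytic subunits), by isoform family, and, per comparison and complex, as the 2 called genes with the largest rise and the 2 with the largest fall. Of each list at most 3 called genes of the largest change were named. Not every gene this rule names is reported here. The third Ctrl column matched no title of a sample and was taken as a Ctrl library with no number of its own.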

Additional observations from a re-analysis of the deposited data

Results flagged for a closer look

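In 9 genes the response to I/R differed between PT-KO and control mice in a test of the difference itself, or 10.1% of those tested against 16.4% of all genes called lower. With sex as a covariate 1 of the 9 was called. The Ndufaf assembly factors among the 9 were Ndufaf3 (-0.89 ± 0.23 on the log2 scale), Ndufaf2 (-0.70 ± 0.23), Ndufaf5 (-0.58 ± 0.19) and Ndufaf1 (-0.40 ± 0.13), the last a factor for the membrane arm of complex I. By symbol, the complex I genes were Ndufa4l2 (-2.12 ± 0.54), Ndufs1 (-0.72 ± 0.20), Ndufb10 (-0.69 ± 0.17) and Ndufs5 (-0.41 ± 0.14), and the complex V gene was Atp5s (-0.89 ± 0.28). Of these, Ndufa4l2 is a paralog of the complex IV subunit Ndufa4, and Atp5s is listed in RefSeq as Dmac2l. The edgeR adjusted p ran from 0.0109 for Ndufb10 to 0.0454 for Ndufs5. Ndufaf5, Ndufaf1, Ndufb10 and Ndufs5 were named after their values were seen. With each library dropped in turn, Ndufaf2 missed the threshold in 9 of 12 fits and Atp5s in 6 of 12. Ndufa4l2, Ndufaf3 and Ndufs1 passed in all 12. These fits kept from 4 to 9 of the 9 calls, so some of Ndufaf5, Ndufaf1, Ndufb10 and Ndufs5 also missed it, which was not followed by gene. Without the female Ctrl libraries, with Ctrl library 3 left as the Ctrl group, the median difference over the 89 genes was -0.09, against -0.15 with them.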

How the results depend on the processing

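The fall in PT-KO mice after I/R kept its direction in every alternative run, leaving out each library included. Between 67 and 80 genes were called lower, beside 19.5% to 33% of all genes, and at most 1 was called higher. The other comparisons moved more. The percent of all genes called lower in the same fit follows each count in parentheses. In controls with I/R (13 called) DESeq2 called 33 (12.1%), library totals 6 (4.92%), sex as a covariate 20 (5.96%), 1 fit of all 12 libraries 49 (14.5%) and the fit without the female libraries, added after seeing the data, 4 (3.15%), with 0 to 32 when each library was left out in turn (0.373% to 10.9%). Between genotypes after I/R (10 called) library totals gave 35 (33.2%), sex as a covariate 23 (27.6%) and all 12 libraries 23 (27%), with 5 to 34 when each library was left out (16.2% to 25.1%). Between genotypes without I/R (0 called) DESeq2 called 1 lower (1.75%) and leaving out a library gave 0 or 1 lower (0% to 5.38%). Without the third Ctrl library 4 were also higher, where 1091 of all 15597 genes were called higher. For the difference of the I/R changes (9 called) sex as a covariate gave 1 (11.1%), the fit without the female libraries 0 (8.11%) and leaving out a library 4 to 21 (11.9% to 17.8%). Library totals moved the median of all genes to 0.11 in controls and -0.21 between genotypes after I/R. The cause of these moves was not tested.

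A replicate block was fitted although replicate numbers did not pair the libraries: same-numbered libraries had a median residual correlation of -0.031, and 2 of 10 correlated best with their own number. With the block 24 genes were called in controls with I/R (10.5% of all genes lower), 0 between genotypes after I/R (6.53%), 4 between genotypes without I/R, all higher (3.83%), 67 in PT-KO mice with I/R (27.7%) and 3 for the difference (11.3%).

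Without mitochondrial counts in the total, the genes took 2.42% in Ctrl, 2.25% in PT-KO and 1.57% in PT-KO+I/R. By counts in place of length-scaled levels the share of Cox4i2 was 0.0536% (Ctrl), 0.0585% (PT-KO) and 0.0585% (Ctrl+I/R), and that of Cox7a1 4.15%, 3.78% and 1.66%. No named gene that was called changed sign in any alternative run.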

Other observations

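Ndufb10, an accessory subunit of the membrane arm of complex I named after its values were seen, was at 113, 87.6 and 128 CPM in controls and at 69.2, 72.3 and 69.3 CPM in PT-KO mice after I/R, with no overlap, and had 144, 164 and 145 CPM in PT-KO mice without I/R.

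Among rows left out as non-coding, Ndufb1-ps reached 1370 counts in a library and the other 12 at most 52.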
